A study of Mus musculus with 16 samples.

Results

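Whole mouse skin treated with the irritant detergent SDS (sodium dodecyl sulfate) was compared with and without Topsym late in the course, and the change between day 3 and day 5 was set against the same change in the other arm. The quantity for each gene was the change with Topsym minus the change of SDS alone, which equals the gap between the arms at day 5 minus the gap at day 3. It asks whether the arms converged or parted late in the course. The libraries were chosen by their titles, with no measured value used. They are the 8 of 16 libraries that belong to days 3 and 5. The difference was tested in 19189 of 32078 genes, those with at least 10 normalised reads in at least 2 libraries of the series.

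The groups were SDS with Topsym at day 5 (SDS_D5_Topsym), SDS with Topsym at day 3 (SDS_D3_Topsym), SDS alone at day 5 (SDS_D5) and SDS alone at day 3 (SDS_D3), with 2 libraries each. All came from mice of 7 weeks, and all 4 groups carried SDS. The labels speak of topical treatment over 4 days while the titles reach day 5. No label gives the strain, the sex or how SDS and Topsym were timed around the sampled days. No label ties a library to an animal, so the spread between the libraries of a group may be technical. P-values here rest on that spread pooled over all 8 groups of the series, not on the spread of the groups compared alone. The design text of the series speaks of sorted hair follicle stem cells and fatty acids and does not describe these whole-skin samples.

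Topsym is a trade name of fluocinonide, a potent steroid of the glucocorticoid class. This is background knowledge and not part of the labels. Glucocorticoids act through a receptor that binds DNA and restrains inflammatory transcription, among other effects that include slower growth of keratinocytes and fibroblasts. In irritated skin, neutrophils arrive early and leave or die, keratinocytes then divide and make stress keratins and barrier proteins, and the dermis is remodelled.

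The 8 libraries held 15199656 to 32066246 reads, and those of day 5 were of another make-up than those of day 3. At day 5, 19885 and 20411 genes had reads with Topsym and 20636 and 20774 in SDS alone. At day 3 the libraries had 23109 and 23740 with Topsym and 23218 and 23540 in SDS alone. The 10 highest genes took 14.4 and 14.8% of reads at day 5 and 6.56 and 6.65% at day 3 with Topsym, against 10.3 and 10.8% at day 5 and 4.92 and 5.02% at day 3 of SDS alone. The deposited values are scaled between libraries, and they say how reads were shared among genes, not how much RNA a piece of skin held. In bulk skin, fewer cells of a type and less RNA per cell cannot be told apart.

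Both arms changed a great deal between day 3 and day 5, and for many genes they changed by different amounts. In limma's moderated test, at an adjusted p of 0.05, 11943 genes changed with Topsym (62.2%), 5207 higher at day 5 (27.1%) and 6736 lower (35.1%), and 12174 in SDS alone (63.4%), 5551 higher (28.9%) and 6623 lower (34.5%). The difference in change passed for 7166 genes, 37.3% of those tested. It was positive for 3639 (19.0%) and negative for 3527 (18.4%), and the median over all genes tested was 0.01 on the log2(normalised reads + 1) scale. A positive difference means that the gene rose more, or fell less, with Topsym than in SDS alone. It was at least 2-fold (log2 of 1) for 2588 genes, 1394 positive and 1194 negative.

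Same-direction changes of different size made up the largest share of the differing genes. Of the 7166, 3344 (46.7%) changed in the same direction in both arms. In 1342 of these the larger change was that of Topsym, and in 2002 (59.9%) it was that of SDS alone. Opposite directions were taken by 770 genes (10.7%), of which 325 rose with Topsym and fell in SDS alone and 445 fell with Topsym and rose in SDS alone. The change passed only with Topsym for 1437 genes, only in SDS alone for 1544 and in neither arm for 71. All these counts come from the same 8 libraries and are no separate evidence.

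Gaps that narrowed and gaps that widened were both common. The gap between the arms passed for 8976 genes at day 5 (46.8%), 4339 higher with Topsym (22.6%) and 4637 lower (24.2%), and for 8401 at day 3 (43.8%), 4000 higher (20.8%) and 4401 lower (22.9%). Both count tests on recovered reads gave the other order. DESeq2 called 8032 gaps at day 5 and 8723 at day 3, and edgeR 8242 and 9115, so which day had more gaps depends on the test. Among the 7166 genes, the gap narrowed for 2986 (15.6% of genes tested), widened for 2692 (14.0%) and crossed to the other side for 1317 (6.86%), which leaves 171 (0.891%) in none of these. Of the genes whose gap narrowed, 945 still differed between the arms at day 5 and 2041 no longer passed. Of those whose gap widened, 531 already differed at day 3 and 2161 did not pass there. The root mean square of the gap over all genes tested was 0.99 at day 5 and 0.93 at day 3, and the median size of the gap was 0.45 and 0.44. The 2 libraries of a group themselves differed by a root mean square of 0.93 with Topsym and 0.90 in SDS alone at day 5, and by 0.51 with Topsym and 0.57 in SDS alone at day 3. The p-values use a spread pooled over groups, which does not take this difference between the days into account. With only the 8 libraries of days 3 and 5 in the fit, 7585 gaps passed at day 5 and 7266 at day 3. The distance between the arms was also larger at day 5 with TMM and without the filter. It was larger with each library left out too, but a group then rests on 1 library, whose spread adds to the distance of that day. The fits without a day 5 library could thus hardly have come out otherwise. With a pseudocount of 4 in place of 1 the distance was 0.76 at day 5 and 0.81 at day 3. The order of the days thus depends on the pseudocount. The spread between libraries, larger at day 5, is also part of these distances, and how much it adds was not tested.

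**Figure D1:**
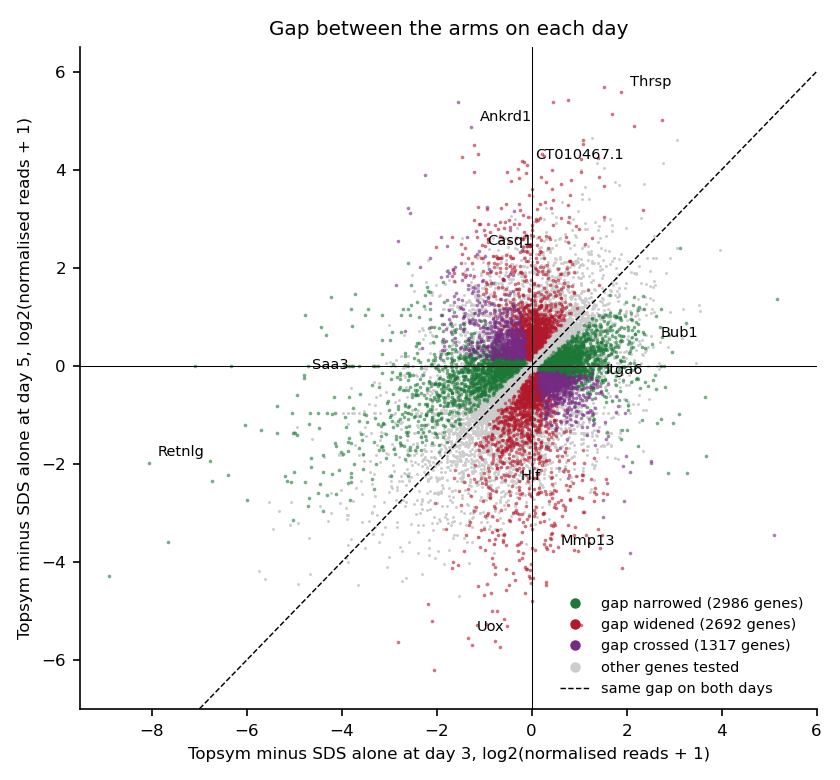
Gap between the arms (Topsym minus SDS alone, log2(normalised reads + 1)) at day 5, on the vertical axis, against that at day 3, on the horizontal axis, for the 19189 genes tested. Points on the dashed line had the same gap on both days, and the coloured points are the 2986 genes whose gap narrowed, the 2692 whose gap widened and the 1317 whose gap crossed.

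A gene with a large difference in change stood for each of these patterns, and the starts of 3 of them are shown, chosen after their values were seen. They are the windows from 250 bases before to 50 bases after the gene start in RefSeq, on build GRCm38.p6, printed along the gene's strand. Saa3 (chr7:46715627-46715926, minus strand) narrowed, Ankrd1 (chr19:36119795-36120094, minus strand) crossed and Mmp13 (chr9:7272264-7272563, plus strand) widened.
Saa3: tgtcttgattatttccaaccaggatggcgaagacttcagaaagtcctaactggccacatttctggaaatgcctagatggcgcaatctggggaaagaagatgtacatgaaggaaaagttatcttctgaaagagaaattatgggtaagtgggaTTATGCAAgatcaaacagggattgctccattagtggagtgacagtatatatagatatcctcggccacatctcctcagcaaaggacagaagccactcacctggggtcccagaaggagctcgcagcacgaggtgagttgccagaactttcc
Ankrd1: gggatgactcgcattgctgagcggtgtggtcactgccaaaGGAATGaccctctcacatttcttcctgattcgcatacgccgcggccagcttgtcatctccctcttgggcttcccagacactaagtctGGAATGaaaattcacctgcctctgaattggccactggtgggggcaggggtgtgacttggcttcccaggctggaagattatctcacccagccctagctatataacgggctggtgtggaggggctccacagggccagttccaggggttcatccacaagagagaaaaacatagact
Mmp13: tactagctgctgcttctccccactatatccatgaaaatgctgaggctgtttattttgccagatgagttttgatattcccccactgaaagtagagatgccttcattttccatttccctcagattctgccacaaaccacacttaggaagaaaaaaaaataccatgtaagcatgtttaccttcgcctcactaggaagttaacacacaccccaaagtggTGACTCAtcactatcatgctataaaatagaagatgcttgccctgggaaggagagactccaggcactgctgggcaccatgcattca
Capitals mark matches, on either strand, to 4 motifs. In Saa3 they mark TTATGCAA at bases 152 to 159, a match to the C/EBP motif TTGCNNAA, which 10.8% of 32544 such windows hold. In Ankrd1 they mark GGAATG at bases 41 to 46 and 128 to 133, matches to the TEAD motif CATTCC, held by 14.6% of windows. In Mmp13 they mark TGACTCA at bases 216 to 222, a match to the AP-1 motif TGANTCA, held by 7.79%. The glucocorticoid receptor half-site TGTTCT, held by 18.9% of windows, had no match in the 3 windows. The motifs do not overlap here, and a match is only a run of letters, not evidence of binding.

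Saa3 (ENSMUSG00000040026, chromosome 7, 46711998 to 46715700), a serum amyloid made in injured skin, was close in both arms at day 5. It had 1517 and 1540 normalised reads at day 5 and 1364 and 1486 at day 3 with Topsym, against 1710 and 1794 at day 5 and 40902 and 38580 at day 3 of SDS alone. Only the day 3 libraries of SDS alone were high, and they lay far above the other 6. The change was 0.10 with Topsym and -4.50 in SDS alone, a difference of 4.60 (SE 0.43, adjusted p = 4.31e-07), and the gap at day 5 was -0.20 and did not pass. Reads of Saa3 can be shared with other Saa genes.

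Ankrd1 (ENSMUSG00000024803, chromosome 19, 36111961 to 36120099), a nuclear protein of stretched muscle and wounds, fell steeply in SDS alone. It had 1168 and 1288 normalised reads at day 5 and 1123 and 1148 at day 3 with Topsym, against 37.0 and 45.3 at day 5 and 2726 and 2742 at day 3 of SDS alone. The arms did not overlap on either day and stood in opposite order on the 2 days. The change was 0.11 with Topsym, which did not pass, and -6.03 in SDS alone, a difference of 6.14 (SE 0.32, adjusted p = 5.9e-10).

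Mmp13 (ENSMUSG00000050578, chromosome 9, 7272514 to 7283331), a collagenase of remodelling tissue, went opposite ways. It had 76.6 and 32.0 normalised reads at day 5 and 211 and 221 at day 3 with Topsym, against 713 and 682 at day 5 and 159 and 158 at day 3 of SDS alone. The arms were close at day 3 and far apart at day 5, with no overlap. It fell by 2.10 with Topsym and rose by 2.13 in SDS alone, a difference of -4.23 (SE 0.49, adjusted p = 4.57e-06).

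Neutrophil genes were among the 10 largest positive differences, and their RNA fell in SDS alone. Retnlg, a resistin-like protein of neutrophils, had 44.4 and 27.2 normalised reads at day 5 and 35.2 and 34.9 at day 3 with Topsym, against 172 and 113 at day 5 and 9555 and 9618 at day 3 of SDS alone. The Topsym libraries of both days lay together, below SDS alone at day 5 and far below it at day 3. The difference was 6.08 (SE 0.74, adjusted p = 7.53e-06). Ngp, a neutrophil granule protein, had 62 recovered reads in the 2 libraries at day 5 and 6533 at day 3 of SDS alone, but 2 and 14 with Topsym. Ly6g, the surface marker of mouse neutrophils, had reads only at day 3 of SDS alone, 301 over the 2 libraries, and 0 in the other 3 groups, so no fold is given. Itgb2l, Mrgpra2b and the hair keratin gene Krt83 likewise had at least 288 recovered reads at day 3 of SDS alone and at most 4 in each other group. The calls of Ly6g, Itgb2l and Krt83 were lost in both count tests on recovered reads, and that of Mrgpra2b in edgeR. The other 2 of the 10 were Nos2, inducible nitric oxide synthase, at 5.64 (SE 0.89, adjusted p = 0.000103), and Cass4, a cell adhesion adaptor, at 4.52. At day 5 Nos2 had 17 recovered reads with Topsym and 8 in SDS alone, and Cass4 had 6 and 2. Both sizes thus depend on the pseudocount.

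The 10 largest negative differences held proteases and lipid and purine enzymes, most of which rose in SDS alone. With Topsym these rose less, fell or did not pass. Alox8, a lipoxygenase of irritated mouse skin, had 24.2 and 78.3 normalised reads at day 5 and 8.19 and 22.1 at day 3 with Topsym, against 1780 and 1729 at day 5 and 25.0 and 39.9 at day 3 of SDS alone. Only the day 5 libraries of SDS alone were high. The difference was -4.13 (SE 0.72, adjusted p = 0.000237). Uox, urate oxidase, had 52.4 and 91.1 at day 5 and 13.9 and 15.4 at day 3 with Topsym, against 3288 and 3258 at day 5 and 33.3 and 44.7 at day 3 of SDS alone. S100a7a, a calcium-binding antimicrobial protein, rose by 4.41 in SDS alone and its change of 0.37 with Topsym did not pass. The serine protease genes Tmprss11g and Tmprss11b had differences of -4.60 and -3.81, and both stood lower with Topsym at day 5 and higher at day 3. Mmp10, a stromelysin, crossed in the same way, at -3.98. Gprc5a, a receptor of epithelia, moved through the Topsym arm instead. It fell by 3.67 there, and its change of -0.16 in SDS alone did not pass. Npy1r, a neuropeptide Y receptor, stood lower at day 5 in both arms. It had 0 reads at day 5 and 39.3 and 46.3 normalised reads at day 3 with Topsym. In SDS alone it had 49.8 and 51.0 at day 5 and 87.4 and 121 at day 3. The size of its difference thus depends on the pseudocount. Cntn2, an adhesion molecule of nerves, completed the 10.

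**Figure D2:**
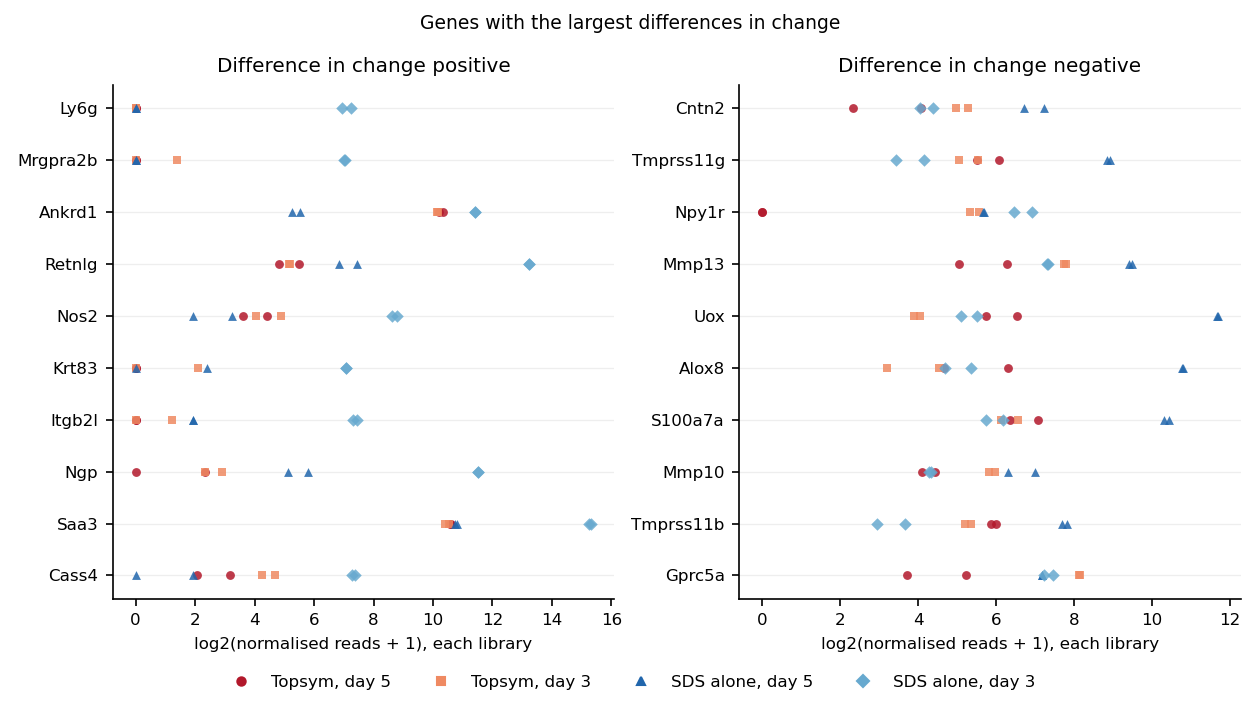
Level of the 10 genes with the largest positive (left) and the 10 with the largest negative (right) difference in change in each of the 8 libraries, as log2(normalised reads + 1) on the horizontal axis. On the left mostly the day 3 libraries of SDS alone stand apart (Saa3 at 40902 and 38580 normalised reads), and on the right mostly the day 5 libraries of SDS alone (Uox at 3288 and 3258). For Ankrd1, on the left, the day 5 libraries of SDS alone stand apart, at 37.0 and 45.3.

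Neutrophil genes had no negative difference that passed, and each gene with a positive one had a smaller gap at day 5 or none that passed. Of 24 neutrophil genes 22 passed the filter on low values, and the difference was positive for 13 and negative for 0, beside 19.0 and 18.4% of all genes. The median difference was 1.70, with 8 of the 22 under 10 normalised reads in at least 1 group. Members such as Ly6g passed the filter only through day 3 of SDS alone, so this count and median depend in part on the filter and the pseudocount and are given as a description. All 13 gaps narrowed, and the median gap was -2.10 at day 5 and -4.35 at day 3. Between the days 11 members fell, 3 rose and 8 did not pass with Topsym, while in SDS alone 20 fell and 2 rose. Of all genes, 35.1% fell and 27.1% rose with Topsym, and 34.5% fell and 28.9% rose in SDS alone. These shares, and those of the difference, are the background for the counts of every list below.

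The 2 neutrophil genes that rose in SDS alone were S100a8 and S100a9, the subunits of calprotectin, which keratinocytes also make. S100a9 had 27738 and 27973 normalised reads at day 5 and 1519 and 1352 at day 3 with Topsym, against 210535 and 220928 at day 5 and 30141 and 29855 at day 3 of SDS alone. It rose in both arms and stayed lower with Topsym on both days. The rise was 4.28 with Topsym and 2.85 in SDS alone, a difference of 1.43 (SE 0.15, adjusted p = 1.82e-06). S100a8 had a difference of 1.68. Cxcr2, a chemokine receptor of neutrophils, rose by 0.59 with Topsym and fell by 1.35 in SDS alone. Lcn2, a siderophore-binding protein, fell to 1313 normalised reads on average at day 5 with Topsym, against 1691 at day 3, while in SDS alone it averaged 4569 at day 5 and 26387 at day 3.

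Chemokines that attract neutrophils followed, with 6 of 8 positive and 0 negative (median 2.41). Pf4, a platelet and macrophage chemokine, had 139 and 150 normalised reads at day 5 and 519 and 629 at day 3 with Topsym, against 159 and 171 at day 5 and 3955 and 3871 at day 3 of SDS alone. The arms lay close at day 5, and the gap of -0.19 there did not pass. Cxcl5 and Ppbp had fitted differences of 4.39 and 4.07, which are no bounds since both had 0 reads at day 5 with Topsym, and lost the call in both count tests.

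Cytokines did not move as a group, with 6 of 20 positive and 4 negative. Il1b, interleukin 1 beta, had 206 and 200 normalised reads at day 5 and 349 and 349 at day 3 with Topsym, against 589 and 580 at day 5 and 4090 and 4279 at day 3 of SDS alone. The arms did not overlap on either day. The difference was 2.06 (SE 0.20, adjusted p = 6.15e-07). Tnf and Csf3, the growth factor of neutrophils, had differences of 3.04 and 3.53, and neither gap passed at day 5. Tslp, an alarm cytokine of keratinocytes, went the other way at -2.73. It rose in SDS alone, to 206 and 150 normalised reads at day 5 against 18.3 and 35.0 at day 3, and had 82.7 and 99.0 at day 5 and 97.4 and 81.8 at day 3 with Topsym.

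Macrophage genes were positive for 16 of 24 and negative for 2 (median 0.50), and acute phase genes for 7 of 16 with 2 negative (median 0.89). Itgam, an integrin of myeloid cells, had a difference of 1.94 and Chil3, a chitinase-like protein, of 1.63. Hp, haptoglobin, had 391 and 315 normalised reads at day 5 and 4587 and 4591 at day 3 with Topsym, against 388 and 309 at day 5 and 30270 and 28244 at day 3 of SDS alone. The arms overlapped at day 5 only. The red blood cell list, which tracks blood in the tissue, had 2 of 8 positive and 1 negative, near the 37.3% called over all genes. Its summed level was 3546 and 3117 at day 5 and 2009 and 1729 at day 3 with Topsym, against 9740 and 10549 at day 5 and 9818 and 11408 at day 3 of SDS alone. The part of blood in the immune lists was not tested.

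Lymphocyte, dendritic cell, interferon and mast cell lists had calls in both directions, at a share near or below the 37.3% of all genes. The counts were 3 positive and 3 negative of 21 T cell and NK cell genes, 3 and 3 of 16 dendritic and Langerhans cell genes, 5 and 3 of 26 interferon response genes, and 2 and 1 of 12 mast cell genes. Cd207, langerin of Langerhans cells, had 30.3 and 32.0 normalised reads at day 5 and 46.7 and 71.7 at day 3 with Topsym, against 222 and 156 at day 5 and 33.3 and 51.5 at day 3 of SDS alone. Among these 8 libraries those of SDS alone at day 5 stood above the rest, though below all libraries of days 0 and 1, which had 341 to 643 (difference -3.02, SE 0.32, adjusted p = 2.04e-06). Ciita, the master regulator of MHC class II genes, fell by 4.65 with Topsym, to 2 recovered reads, and its change of -0.16 in SDS alone did not pass.

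**Figure D3:**
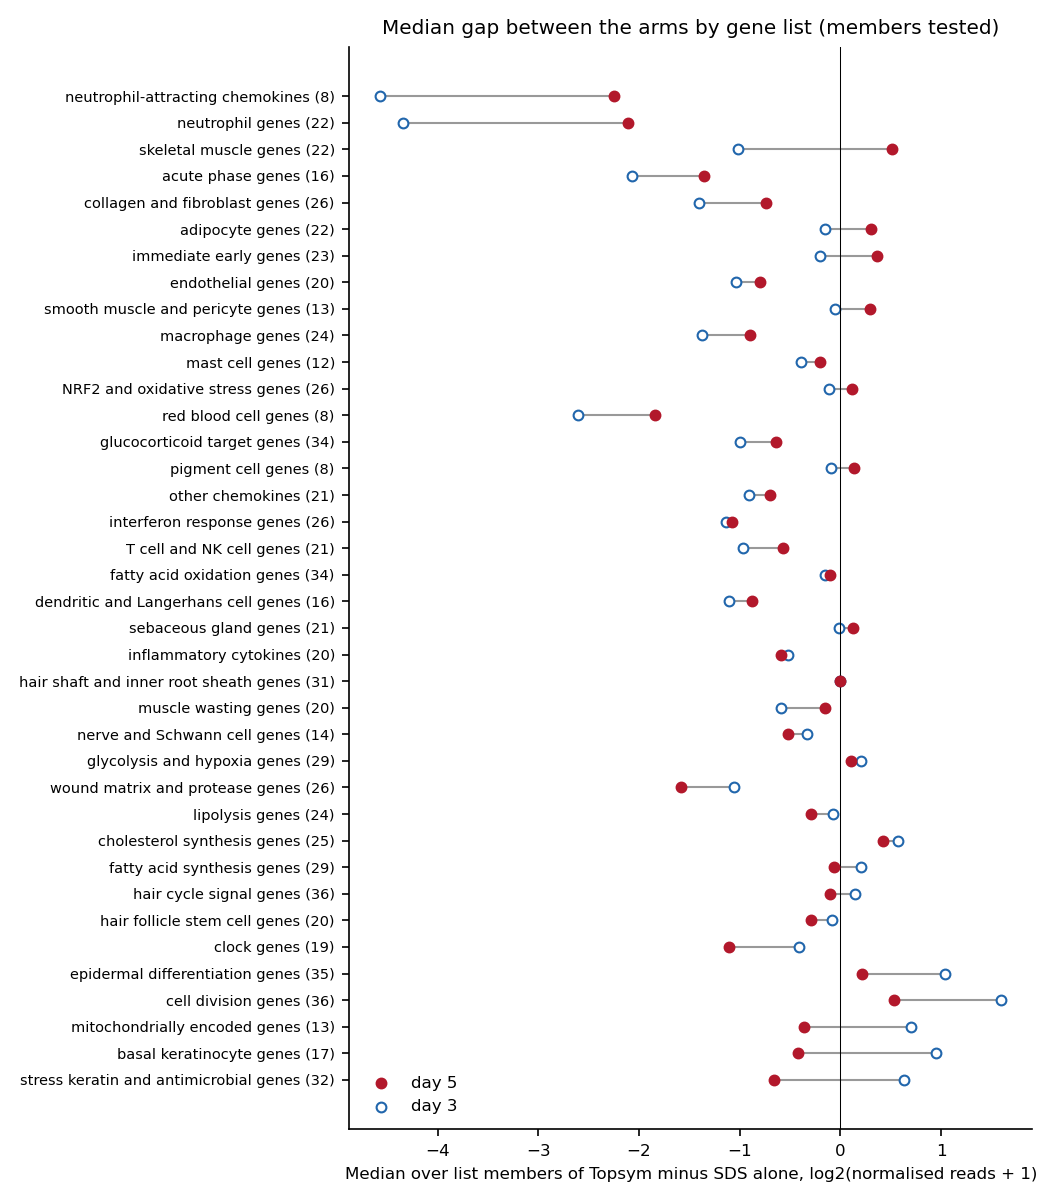
Median gap between the arms (Topsym minus SDS alone, log2(normalised reads + 1)) over the tested members of each of 38 gene lists, at day 5 (filled) and day 3 (open), ordered by the median difference in change. Neutrophil genes stay left of 0 on both days (-2.10 at day 5 and -4.35 at day 3), skeletal muscle genes move to the right of 0, and basal keratinocyte genes move to the left of it.

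Cell division genes were higher with Topsym on both days, by less at day 5. Of 36 genes, 29 had a negative difference and 0 a positive one (median -0.84), and all 29 gaps narrowed. The gap passed as higher with Topsym for 26 at day 5 and 35 at day 3, beside 22.6 and 20.8% of all genes. It passed as lower for 0 on either day, and its median was 0.53 at day 5 and 1.59 at day 3. Mki67, a marker of cycling cells, had 6523 and 7322 normalised reads at day 5 and 5225 and 5240 at day 3 with Topsym, against 5126 and 5474 at day 5 and 1467 and 1522 at day 3 of SDS alone. The 2 day 3 libraries of SDS alone were low, and Topsym stayed above SDS alone on both days. The rise was 0.40 with Topsym and 1.83 in SDS alone, a difference of -1.42 (SE 0.09, adjusted p = 5.34e-09).

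Bub1, a spindle checkpoint kinase, had 401 and 447 normalised reads at day 5 and 359 and 422 at day 3 with Topsym, against 324 and 295 at day 5 and 66.6 and 66.1 at day 3 of SDS alone. Its change of 0.12 with Topsym did not pass, nor did the gap of 0.45 at day 5. Ccnb1, cyclin B1, and Kif11, a spindle motor, had differences of -1.60 and -1.54 and still stood higher with Topsym at day 5. With Topsym 24 of the 36 rose and 0 fell, beside 35 and 0 in SDS alone.

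Basal keratinocyte genes turned over between the days. Of 17 genes, 14 were negative and 0 positive (median -1.05), and 7 of the gaps crossed. The median gap was -0.42 at day 5 and 0.95 at day 3. Between the days 13 fell and 4 rose with Topsym, while in SDS alone 3 fell and 13 rose. Itga6, an integrin of the hemidesmosome that anchors the epidermis, had 7741 and 7617 normalised reads at day 5 and 11031 and 10730 at day 3 with Topsym, against 9600 and 9318 at day 5 and 4211 and 4162 at day 3 of SDS alone. The arms stood in opposite order on the 2 days without overlap. It fell by 0.50 with Topsym and rose by 1.18 in SDS alone, a difference of -1.68 (SE 0.07, adjusted p = 3.75e-11).

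Lama3, a laminin chain of the basement membrane, had a difference of -2.30 and Dsg3, a desmosomal cadherin, of -1.86. Both crossed, as did Col17a1, a hemidesmosome collagen that is also in the hair follicle stem cell list, at -1.23. The summed level of the basal list, led by keratins, did not show this turn. It was 1549829 and 1478411 at day 5 and 752911 and 743178 at day 3 with Topsym, against 990250 and 1040183 at day 5 and 314199 and 308924 at day 3 of SDS alone, higher with Topsym on both days.

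Epidermal differentiation genes rose in both arms, most of them more in SDS alone. With Topsym 32 of 35 rose and 1 fell, and in SDS alone all 35 rose. The difference was negative for 28 and positive for 5 (median -0.63), with 20 gaps narrowed and 11 crossed. Tgm3, a transglutaminase that crosslinks the cornified envelope, had 4306 and 4488 normalised reads at day 5 and 993 and 989 at day 3 with Topsym, against 9872 and 9219 at day 5 and 626 and 560 at day 3 of SDS alone. It was lower with Topsym at day 5 and higher at day 3 (difference -1.86, SE 0.09, adjusted p = 4.73e-10).

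Lor, loricrin, the main protein of the cornified envelope, did the reverse. It had 299516 and 275429 at day 5 and 41307 and 35763 at day 3 with Topsym, against 166277 and 175133 at day 5 and 66576 and 58584 at day 3 of SDS alone (difference 1.45, SE 0.15, adjusted p = 1.84e-06). Krt10, the keratin of the spinous layer, rose by 2.65 with Topsym and 2.78 in SDS alone, and its difference of -0.14 did not pass (adjusted p = 0.16).

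Stress keratin and antimicrobial genes were negative for 24 of 32 and positive for 4 (median -1.08), but not by 1 pattern. The gap narrowed for 16, widened for 11 and crossed for 1. Krt6a, a keratin of injured epidermis, had 100679 and 92522 normalised reads at day 5 and 79940 and 76609 at day 3 with Topsym, against 94864 and 104081 at day 5 and 29864 and 27945 at day 3 of SDS alone. The arms overlapped at day 5 only, and the difference was -1.48 (SE 0.10, adjusted p = 1.18e-08). Krt6b followed at -1.47, and both can share reads.

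Sprr2d, a small proline-rich protein of the envelope, parted instead. It had 27853 and 27863 normalised reads at day 5 and 2571 and 2565 at day 3 with Topsym, against 69445 and 67490 at day 5 and 3009 and 3222 at day 3 of SDS alone, a difference of -1.02. Serpinb3a, a protease inhibitor, and Defb4, a beta-defensin, widened at -2.99 and -3.29, beside S100a7a. Sprr2 and defensin genes have near copies that can share reads. The 4 positive members included Lcn2, S100a8 and S100a9 of the neutrophil list.

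**Figure D4:**
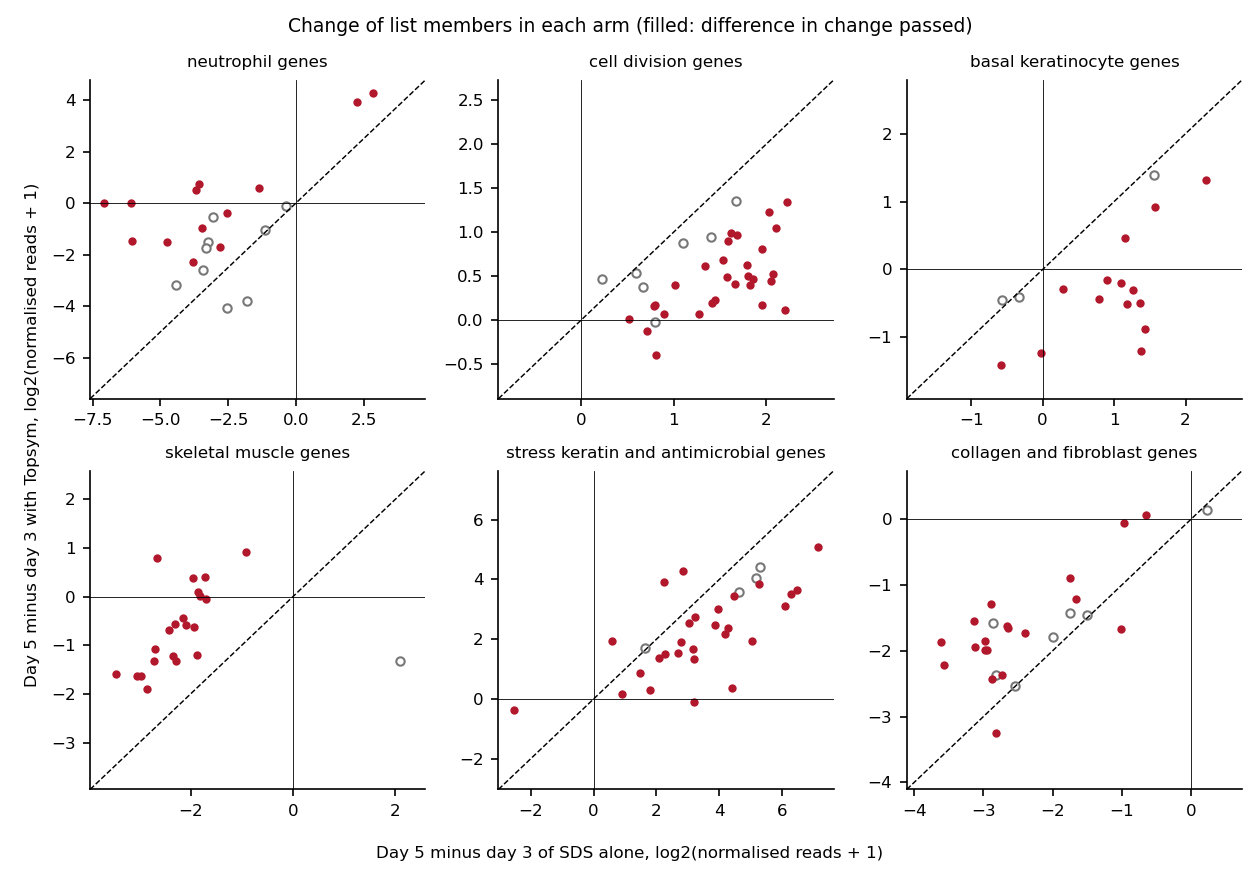
Change between day 3 and day 5 with Topsym (vertical) against that of SDS alone (horizontal), in log2(normalised reads + 1), for the tested members of 6 lists. Filled points passed the test of the difference, and the dashed line marks equal changes. Most cell division genes, among them all the filled ones, lie below the line with rises in SDS alone (29 of 36 filled). Skeletal muscle genes lie above it with falls in SDS alone (21 of 22 filled), apart from Myh7, which is open and lies below.

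Dermal genes fell in both arms, most of them more in SDS alone. Of 26 collagen and fibroblast genes, 17 were positive and 2 negative (median 0.78), and 16 gaps narrowed. With Topsym 22 fell and 0 rose, and in SDS alone 25 fell and 1 rose. Col3a1, a fibrillar collagen, had 573 and 593 normalised reads at day 5 and 2132 and 2114 at day 3 with Topsym, against 1640 and 1497 at day 5 and 19519 and 18748 at day 3 of SDS alone. Topsym was lower on both days, by less at day 5 (gap -1.43, against -3.17 at day 3; difference 1.75, SE 0.06, adjusted p = 1.08e-11). Col1a1, the main collagen of the dermis, had a difference of 1.59 and a gap of -0.37 at day 5, against -1.96 at day 3.

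The wound matrix and protease list split, with 11 positive and 7 negative of 26 (median -0.15). Tnc, tenascin C of healing wounds, and Timp1, an inhibitor of metalloproteases, narrowed at 2.25 and 3.22. Tnc had 335 and 396 normalised reads at day 5 and 2103 and 2162 at day 3 with Topsym, against 755 and 761 at day 5 and 21228 and 21031 at day 3 of SDS alone. Mmp13 and Mmp10, given above, lie at the other end of the same list. Endothelial genes, all 20 of which fell in both arms, were positive for 9 and negative for 2 (median 0.60).

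Skeletal muscle genes differed in nearly every member, and most gaps crossed. Of 22 tested genes 21 were positive and 0 negative (median 1.63), and 17 gaps crossed. The median gap was 0.51 at day 5 and -1.01 at day 3. Between the days 4 rose and 14 fell with Topsym, while in SDS alone 0 rose and 21 fell. The member that did not pass was Myh7, slow myosin, at -3.40 with a mean under 10 normalised reads in every group. Casq1, the calcium store of fast fibres, had 599 and 625 normalised reads at day 5 and 359 and 351 at day 3 with Topsym, against 141 and 103 at day 5 and 774 and 765 at day 3 of SDS alone. The arms stood in opposite order on the 2 days. One of the 4 that rose, it rose by 0.79 with Topsym and fell by 2.66 in SDS alone (difference 3.45, SE 0.14, adjusted p = 2.69e-11).

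Acta1, skeletal actin, and Tnni2, fast troponin I, crossed too, at 1.96 and 2.33. The summed level of the muscle list was 189995 and 192488 at day 5 and 311895 and 318988 at day 3 with Topsym, against 120822 and 125832 at day 5 and 643636 and 639692 at day 3 of SDS alone. These genes mark a muscle layer that whole skin carries, and its share in each piece of skin was not measured. The muscle wasting list, with 9 positive and 8 negative of 20, showed no common direction.

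Fat and lipid genes did not move together. Adipocyte genes were positive for 9 of 22 and negative for 5, although 20 fell with Topsym and 19 in SDS alone. Lipolysis genes were also positive for 9 and negative for 5, of 24. G0s2, an inhibitor of the fat lipase, crossed at 4.37 (SE 0.36, adjusted p = 1.14e-07). It had 101 and 51.1 normalised reads at day 5 and 115 and 145 at day 3 with Topsym, against 17.1 and 17.0 at day 5 and 681 and 653 at day 3 of SDS alone. Plin1, a coat protein of fat droplets, had 68.6 and 73.5 at day 5 and 1347 and 1355 at day 3 with Topsym, against 2.85 and 9.92 at day 5 and 773 and 782 at day 3 of SDS alone.

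Pnpla2, the main fat lipase, and Lipe, its partner, had small differences of 0.79 and 0.72. Adrb3, the adrenergic receptor of fat cells, went the other way at -2.17. It fell with Topsym, and its change in SDS alone did not pass. Of 34 fatty acid oxidation genes 14 were positive and 4 negative. Of 29 fatty acid synthesis genes 6 were positive and 13 negative, and of 25 cholesterol synthesis genes 3 were positive and 11 negative. Hmgcs1, an early enzyme of cholesterol synthesis, narrowed at -1.14 (SE 0.10, adjusted p = 1.28e-07), with no gap that passed at day 5.

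Known glucocorticoid target genes did not share a direction. Of 34, 16 were positive and 10 negative (median 0.23), beside 19.0 and 18.4% of all genes. At day 5, 7 stood higher with Topsym and 22 lower, beside 22.6 and 24.2% of all genes. At day 3, 2 stood higher and 28 lower, beside 20.8 and 22.9%. Fkbp5, a chaperone partner of the receptor, had 4615 and 4614 normalised reads at day 5 and 6606 and 6687 at day 3 with Topsym, against 3833 and 4043 at day 5 and 10218 and 9915 at day 3 of SDS alone. It crossed, with a difference of 0.83 (SE 0.06, adjusted p = 2.19e-08). Tsc22d3, also called Gilz, stayed lower with Topsym on both days and had a difference of 0.27. Mt1, a metallothionein, crossed at 2.38. Pdk4, a kinase that spares glucose, fell by 5.55 with Topsym and 5.98 in SDS alone, and its difference of 0.42 was lost when each of 6 libraries was left out in turn.

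Beside 37.3% of all genes, the hair lists differed in their share of calls. Of 20 hair follicle stem cell genes 8 were negative and 4 positive, and of 36 hair cycle signals 10 were negative and 3 positive. Of 31 hair shaft genes 3 were negative and 3 positive, and 22 of the 31 had under 10 normalised reads in a group. Lgr5, the stem cell receptor, had at most 14.2 normalised reads in a day 5 library, and its difference did not pass. Lep, leptin of fat cells, did not pass either (difference 0.95, adjusted p = 0.226). It had 0 recovered reads at day 5 with Topsym and 2 in SDS alone, and it passed with a pseudocount of 4 (1.49) and without SDS_D5 replicate 2 (1.92), while edgeR gave -1.82 and no call.

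Most clock genes parted further late, with 12 of 19 negative and 2 positive (median -0.58), and 11 gaps widened. The gap passed as lower with Topsym for 13 at day 5 and already for 10 at day 3, beside 24.2 and 22.9% of all genes. It passed as higher for 0 and 1, and its median was -1.11 at day 5 and -0.41 at day 3. Hlf, an output factor of the circadian clock, had 238 and 216 normalised reads at day 5 and 381 and 348 at day 3 with Topsym, against 1224 and 1256 at day 5 and 499 and 470 at day 3 of SDS alone. The gap was -2.45 at day 5 and -0.41 at day 3, and both passed (difference -2.03, SE 0.12, adjusted p = 2.33e-09). Nr1d2, a nuclear receptor of the clock, fell with Topsym and its change of -0.09 in SDS alone did not pass. Immediate early genes, which respond within minutes to handling, were positive for 14 of 23 and negative for 4 (median 0.67), with Fosb at 2.16 and Atf3 at 1.63. No label gives the hour of collection, and its part was not tested.

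**Figure D5:**
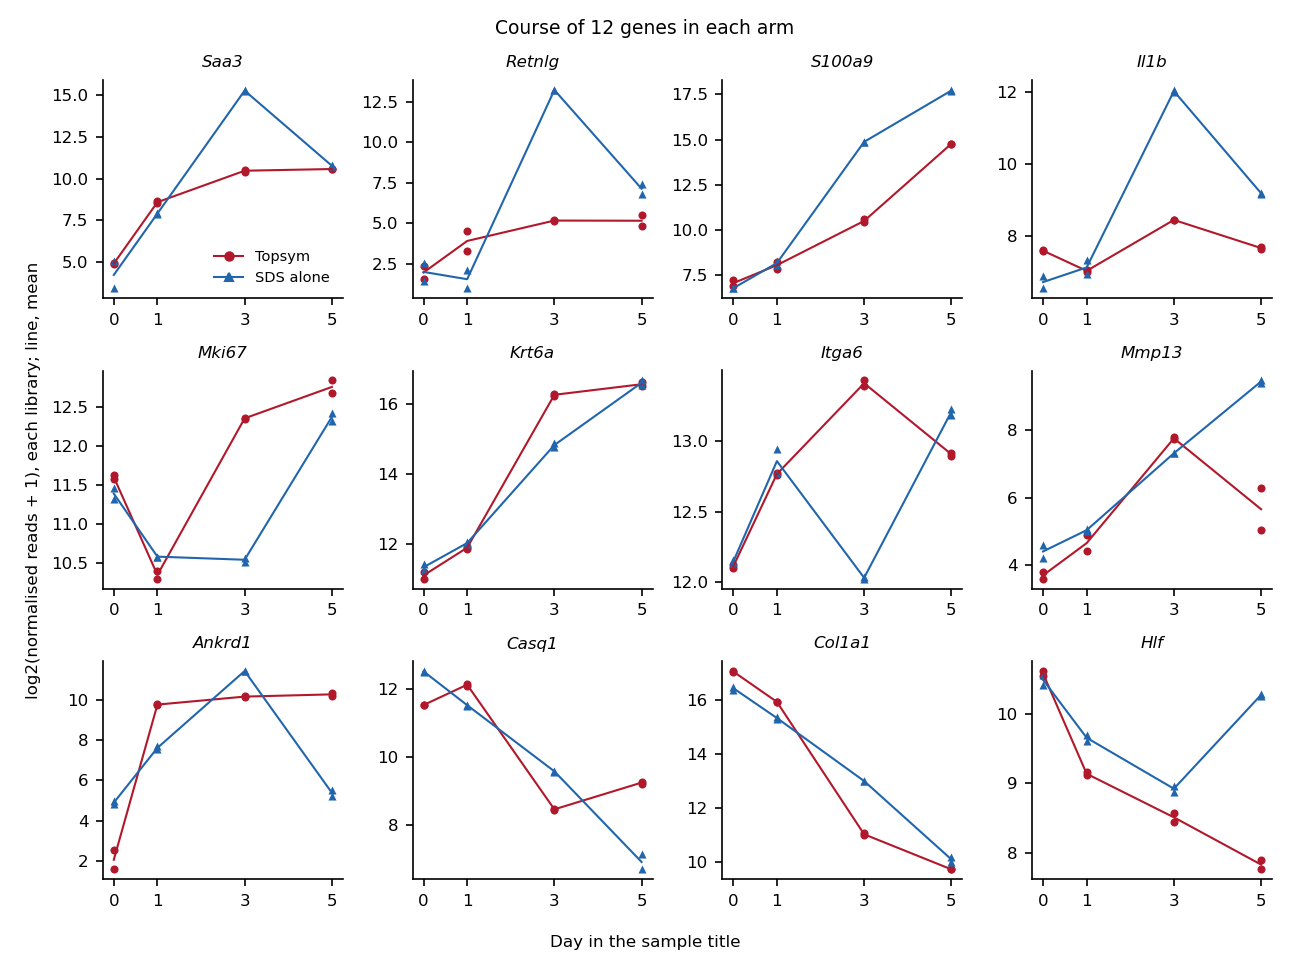
Level of 12 genes in each library, as log2(normalised reads + 1), at days 0, 1, 3 and 5 with Topsym (circles) and in SDS alone (triangles), with lines through the means. Saa3, Retnlg and Il1b peak at day 3 in SDS alone, Mki67 and Krt6a are higher with Topsym at day 3 and nearer to SDS alone at day 5, and Itga6, Ankrd1 and Casq1 change order between day 3 and day 5.

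Signs of RNA make-up moved with the Topsym arm at day 5. The rRNA gene CT010467.1, whose annotated symbol is that of a clone, averaged 717366 normalised reads at day 5 and 14055 at day 3 with Topsym, against 41879 at day 5 and 14843 at day 3 of SDS alone (difference 4.19, SE 0.28, adjusted p = 1.16e-08). It and the other annotated rRNA genes took up to 2.52% of reads at day 5 and 0.0751 and 0.0559% at day 3 with Topsym, against 0.154 and 0.170% at day 5 and 0.0661 and 0.0711% at day 3 of SDS alone. The nuclear noncoding RNAs Neat1 and Malat1 had differences of 1.24 and 1.02, and the small RNA Rn7sk of 3.99, and all 3 rose with Topsym. Neat1 averaged 34193 normalised reads at day 5 and 24517 at day 3 with Topsym, against 8617 at day 5 and 14625 at day 3 of SDS alone. All 13 mitochondrially encoded genes had a negative difference (median -0.94). Their share of reads was 1.03 and 1.21% at day 5 and up to 3.08% at day 3 with Topsym, against 1.73 and 1.62% at day 5 and 2.07 and 2.36% at day 3 of SDS alone. Whether RNA quality or the removal of rRNA differed in the day 5 libraries with Topsym was not tested, nor was the part of these features in the differences above.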

How the data were processed

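RNA of 16 whole-skin libraries was measured by sequencing, and the 8 of days 3 and 5 are compared here. The deposited table gives a signal for each gene, reads scaled between libraries. Per the submitters' processing notes, which give no roles, the authors used Trim Galore 0.6.7, HISAT2 2.2.1, featureCounts 2.0.3, DESeq2 2.11.40.8 and the build mm10. The library kit marks the strand, per the labels, but no source says that counting used it, so overlapping genes may mix reads, and near copies (Sprr2, Krt6, Saa, Lce3, defensin and hemoglobin genes) may share them.

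Differences of log2(value + 1) were fitted in limma 3.58.1 (R 4.3.3) over all 8 groups, using a variance trend and 8 residual degrees of freedom, for the 19189 genes that reached 10 in 2 or more libraries. P-values were adjusted over all these genes by Benjamini and Hochberg, at a threshold of 0.05. A gap narrowed where the difference in change passed, the gap at day 3 passed with the opposite sign and the gap at day 5 was smaller or did not pass. It widened where the gap at day 5 passed with the sign of the difference and that at day 3 had the same sign or did not pass. It crossed where both gaps passed with opposite signs.

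Named genes were the 10 largest differences each way whose highest group mean reached 100, with the same sign in all 16 combinations of libraries and without predicted gene models, then up to 5 more per class, up to 4 per list and a list of genes followed throughout. A gene that this rule names is not reported here. The comparison, the 38 lists and the followed genes were chosen with earlier results of these data known. Lists are described by counts and medians beside those of all genes, with no set test.

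Times each library's size factor, 100% of values came out whole (tolerance 1e-04) in all 16 columns, taken as recovered reads in 15 of them. The factor of SDS_D0_Topsym replicate 1 lies too near 1 for this to be told, so that library stayed out of the count tests and TMM. On recovered reads edgeR 4.0.16 called 7110 genes and DESeq2 1.42.0 called 6885. Among low recovered counts 69.9 to 76.8% were even in each library. Fragments counted as 2 reads would give such a share, which was not tested, and recovered reads and the count tests would then overstate the depth. The chi-square per degree of freedom between the 2 libraries of a group was 3.29 to 6.49, or 1.65 to 3.24 when divided by 2 for this, so no library was a copy of another. Further alternatives left out each library, the filter or the libraries of days 0 and 1, used TMM, a pseudocount of 4 or a robust prior, blocked on replicate number, or asked for a 2-fold change.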

Additional observations from a re-analysis of the deposited data

Results flagged for a closer look

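The change between day 3 and day 5 differed between the arms for 7166 genes by the test of the difference itself. This is the interaction that the report describes, and it is listed because the effect of the later day differs between Topsym and SDS alone. Groups of 2 libraries are too small for a check of libraries that stand apart.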

How the results depend on the processing

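The count of genes whose change differed was 7166, and it was 6760 without a filter, 7030 with TMM, 7359 with a pseudocount of 4, 7170 with a robust prior, 5951 with only the 8 libraries, and 5958 to 7591 with each library left out. A 2-fold minimum left 2588 of these, 5987 changes with Topsym, 6559 of SDS alone, 2753 gaps at day 5, 2584 at day 3, and 963 gaps narrowed, 892 widened and 87 crossed. Leaving out each library gave 10408 to 12298 changes with Topsym, 10590 to 12616 of SDS alone, 8104 to 8809 gaps at day 5, 6745 to 8955 at day 3, and 2451 to 3157 gaps narrowed, 2329 to 2945 widened and 1015 to 1353 crossed. The distance was 0.99 to 1.11 at day 5 and 0.93 to 0.98 at day 3 in those fits, 0.76 at day 5 and 0.81 at day 3 with a pseudocount of 4, and 0.95 and 0.87 without a filter; the cause was not tested. Replicate numbers did not pair the libraries: 28 correlations of deviations between groups lay at -0.03 to 0.03 and 0 were over 0.1. With the replicate number as a block 7064 genes passed. Of 170 named genes 167 passed, 133 of them under every alternative apart from the 2-fold minimum, and 0 of the 167 changed direction. Lep (0.95) and Lgr5 (-0.37), which did not pass, did: Lep was -0.16 in DESeq2, -1.82 in edgeR and -0.02 without SDS_D5 replicate 1, and Lgr5 was 1.60 without SDS_D5 replicate 1 and 1.23 without SDS_D5_Topsym replicate 2. Of 1368 list counts under the alternatives, 141 moved by over 1.5 times. Of the 7166 genes, 595 had a group mean under 10, and there the size of a fitted difference depends on the pseudocount.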

Other observations

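Genes of protein synthesis and of the respiratory chain, grouped by symbol after values were seen, rose more with Topsym. The background over all genes was 19.0% positive and 18.4% negative. Of 87 cytosolic ribosomal protein genes 58 had a positive difference in change and 1 a negative one (median 0.41), and 54 gaps widened. At day 5, 75 stood higher with Topsym and 0 lower, against 20 and 4 at day 3. Of 100 nuclear genes of the respiratory chain 68 were positive and 3 negative (median 0.59), with 53 gaps widened, while all 13 mitochondrially encoded genes of the same chain were negative.

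Other lists lay on either side of the 37.3% of all genes whose difference passed. Of 26 genes of NRF2 and oxidative stress 12 were positive and 4 negative, and Hmox1, heme oxygenase 1, had 2580 and 2241 normalised reads at day 5 and 2891 and 2897 at day 3 with Topsym, against 3089 and 3075 at day 5 and 12960 and 12175 at day 3 of SDS alone. Of 29 glycolysis and hypoxia genes 9 were positive and 12 negative, with Vegfa, a growth factor of vessels, at 1.22 and Car12, a carbonic anhydrase, at -1.34. Of 21 sebaceous gland genes 8 were positive and 4 negative, of 13 smooth muscle and pericyte genes 4 and 1, of 21 other chemokines 4 and 3, of 14 nerve and Schwann cell genes 2 and 1, and of 8 pigment cell genes 2 and 0. Outside the annotated rRNA genes, Lars2, a mitochondrial tRNA synthetase gene picked after its values were seen, averaged 20711 normalised reads at day 5 and 1020 at day 3 with Topsym, against 1059 at day 5 and 853 at day 3 of SDS alone. Its difference of 4.03 lay near the 4.19 of the rRNA gene CT010467.1. The part of RNA quality or rRNA removal in it was not tested.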
